A study of Mus musculus with 35 samples.

Results

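Immunoprecipitation of methylated RNA followed by quantitative PCR (meRIP-qPCR) compares a transcript in RNA pulled down with an antibody against N6-methyladenosine (m6A) with the same transcript in total RNA. In the study of IAKA mice it was run on a panel of transcripts picked from m6A arrays, in animals of another cohort. The 10 transcripts of that panel examined here, of 32544 genes in the count tables, were Serpina3n, Mier1, Dido1, Atf7ip, Pik3r1, Atp2b3, Zfp57, Mastl, Oprk1 and Lrrc20. They were found by their symbols, and all 10 passed the filter on low counts in every comparison. Serpina3n was assayed by meRIP-qPCR at 24 hours and 2 weeks, Mier1, Dido1, Atf7ip, Pik3r1 and Atp2b3 at 24 hours, and the other four at 2 weeks.

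The libraries were made from the hippocampus of adult male C57BL/6JOlaHsd mice. IAKA mice (KA in the plots) had received kainic acid, a glutamate receptor agonist, into the amygdala, which triggers status epilepticus, and then lorazepam to limit the seizures. Control mice had received phosphate-buffered saline (PBS) instead. Each library came from 1 mouse, and each mouse gave a library of total RNA (input), one of RNA pulled down with the m6A antibody (called an m6A library), or both. At 24 hours there were m6A libraries of 5 IAKA and 3 PBS mice and input libraries of 4 and 3. At 2 weeks there were m6A libraries of 6 IAKA and 5 PBS mice and input libraries of 6 and 3.

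Total counts ran from 1652933 to 34564536 in the m6A libraries and from 3057578 to 12694434 in 13 input libraries. The other 3 input libraries, all at 24 hours, held 3171, 4621 and 34486 counts and were left out of the values below, so that 1 PBS and 3 IAKA input libraries remained at 24 hours. Both libraries of IAKA mouse 8 at 24 hours and the m6A library of IAKA mouse 6 at 2 weeks stood apart, with 16.4% to 17.5% of their counts in mitochondrial genes against at most 11.1% elsewhere. The m6A libraries fell into 3 sets by the prefix of their column names (3, 4 or 5). Each set held mice of both times, and set 3 held IAKA mice only. The deep input libraries fell into 2 sets, 4 whose columns carry the word Input, all of IAKA mice (8 at 24 hours, 6, 7 and 9 at 2 weeks), and 9 whose columns do not. All 8 excitatory neuron markers listed, among them Prox1 and Neurod6, had counts in every group, with a summed level of 1345 to 3982 CPM, counts scaled to a common library total, in input. In bulk tissue, fewer cells of a type and less RNA per cell cannot be told apart.

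m6A is laid down on adenosines of messenger RNA by a writer complex built around METTL3 and METTL14, is removed by the demethylases FTO and ALKBH5, and is read by proteins of the YTH family that steer the stability and translation of a transcript. It lies mostly within a short sequence context whose best known form is GGACT in DNA letters, and it gathers in long exons and near stop codons. A level in an m6A library follows how much of a transcript there is as well as how much of it carries the mark, so it was set beside the input of the same mouse wherever both were deep. Several of the panel's genes work in the nucleus: Mier1 encodes a corepressor that recruits histone deacetylases, Dido1 a reader of histone methylation, Atf7ip a partner of the histone methyltransferase SETDB1, and Zfp57 a zinc finger protein that keeps imprinted loci methylated. Others act at membranes and in signalling: Pik3r1 encodes the regulatory p85 subunit of phosphoinositide 3-kinase (PI3K), Atp2b3 a plasma membrane calcium pump, and Oprk1 the kappa opioid receptor, on which dynorphin acts. Mastl encodes the mitotic Greatwall kinase, which restrains the phosphatase PP2A, Serpina3n a secreted serine protease inhibitor made by reactive astrocytes, and Lrrc20 a protein with leucine-rich repeats.

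The coding sequences of the 10 transcripts were searched for this best known context. The words searched were not chosen to match the sites probed by the arrays from which the panel was picked, and those sites were not examined. GGACT, on the transcript strand alone, occurred in the coding sequence of 7 of the 10 canonical transcripts of GENCODE M39, and in 72.2% of 21533 mouse coding sequences. Atf7ip had 7 occurrences, Dido1 6, Atp2b3 and Mastl 3 each, and Pik3r1, Zfp57 and Oprk1 2 each. Serpina3n, Mier1 and Lrrc20 had none. Per 1000 coding bases the median was 0.904 for the 10 and 1.04 for all genes, and the highest were Atf7ip with 1.79 and Oprk1 with 1.75. With GAACT added, then AGACT and also AAACT, all 10 held at least 1 of the 4 words, as did 95.9% of all coding sequences. The 4 transcripts on which the results below turn most are shown by the 25 coding bases around the word nearest the stop codon with 10 coding bases on either side, GGACT where there was one, with the word in capitals, 5′ to 3′ on the transcript strand.
Serpina3n: tttgacacagAAACTgaaattgccc
Mier1: cactgacccaAAACTtgcccatatg
Dido1: agaggagccgGGACTgggaccggca
Lrrc20: cctgcactggAGACTatcaacctgg

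In GRCm39 the Serpina3n stretch lies at chr12:104379809-104379833 on the plus strand, in exon 5 of 5, and the Mier1 stretch at chr4:103019765-103019789 on the plus strand, in exon 13 of 13. The Dido1 stretch lies at chr2:180301436-180301460 on the minus strand, in exon 16 of 16, and the Lrrc20 stretch at chr10:61383952-61383976 on the plus strand, in exon 4 of 5. From the end of the word to the end of the coding sequence there are 39 bases in Serpina3n, 166 in Mier1, 311 in Dido1 and 180 in Lrrc20. A match is a description of the letters, not a methylated site, and the count tables hold a single value per gene, which gives no position along a transcript.

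Serpina3n had the widest spread of levels among the 10 transcripts. In input at 24 hours it stood at 16.9 CPM in the PBS mouse and at 58.0, 135 and 247 CPM in the IAKA mice. In input at 2 weeks the PBS mice had 3.99, 5.77 and 6.66 CPM, while the IAKA mice ran from 15.4 to 159 CPM with a median of 29.4. Every IAKA library lay above every PBS library at both times, though at 24 hours there was 1 PBS library and 10.9% of all genes lay wholly above it, and mouse 42 at 159 CPM was far above the next IAKA mouse at 44.2.

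The log2 fold change of Serpina3n in input was 3.37 (SE 1.29) at 24 hours and 3.18 (SE 0.82) at 2 weeks. Neither passed the threshold over all genes with edgeR (adjusted P = 0.466 and 0.544). Without mouse 42 the value at 2 weeks was 2.34. The change between the times was estimated at -0.20 (SE 1.33, edgeR adjusted P = 1.00), and its sign turned under 5 of the alternatives.

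In the m6A libraries at 24 hours, Serpina3n had 18.8, 23.6 and 62.4 CPM in the PBS mice. The 5 IAKA mice had 93.4, 143, 296, 371 and 435 CPM, all above the PBS mice. The log2 fold change was 2.88 (SE 0.87, edgeR adjusted P = 0.271). Within set 4, which held 2 mice of each group, PBS mice had 18.8 and 62.4 CPM and IAKA mice 371 and 435 CPM, a log2 fold change of 3.22 (edgeR adjusted P = 0.0939).

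At 2 weeks the m6A levels of Serpina3n overlapped between the groups. The PBS mice had 7.63, 8.71, 21.6, 26.2 and 58.3 CPM, and the IAKA mice ran from 14.4 to 232 CPM with a median of 38.8. The log2 fold change was 1.42 (SE 0.66, edgeR adjusted P = 0.949), and without mouse 42, the highest in this assay too, it was 0.37. Without PBS mouse 78, the highest of its group, it was 2.05. Within set 5, with 3 mice of each group, it was 1.81 (edgeR adjusted P = 0.952). DESeq2 placed Serpina3n past the threshold in input at 2 weeks (adjusted P = 0.0147) and in the m6A libraries at 24 hours (adjusted P = 0.0133), and voom did so in input at 24 hours (adjusted P = 0.0144) and in the m6A libraries at 24 hours (adjusted P = 0.00110).

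**Figure D1:**
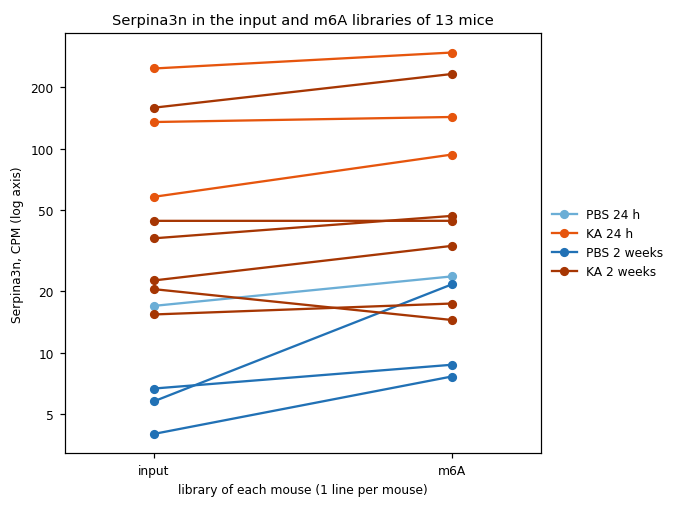
Serpina3n in CPM (log axis) in the input and the m6A library of each of 13 mice, 1 line per mouse, coloured by group. The IAKA mice at 24 hours lie between 58.0 and 296 CPM, and at 2 weeks mouse 42 stands alone at 159 and 232 CPM above the other IAKA mice.

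Set beside its own input, Serpina3n was not further ahead in IAKA mice. The ratio of m6A CPM to input CPM was above 1 in 12 of 13 mice, with a median of 1.31. With libraries scaled by their totals alone, as in CPM, the median log2 ratio over all genes was above 0 too, at 0.15. At 2 weeks the PBS mice had ratios of 1.31, 1.91 and 3.74, and the IAKA mice had 0.706, 1.00, 1.13, 1.29, 1.46 and 1.48. The IAKA ratios lay lower with an overlap, and the highest ratio, that of PBS mouse 4, rested on 33 counts in input. The log2 difference between IAKA and PBS in m6A over input was -0.86 (SE 0.33, edgeR adjusted P = 0.952) at 2 weeks, and -0.38 without PBS mouse 4. At 24 hours it was -0.40 (SE 0.46, edgeR adjusted P = 1.00) against a single PBS mouse with a ratio of 1.39.

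Genes known from reactive astrocytes were set beside Serpina3n. Of a list of 19 such genes, which includes Serpina3n, 19 had a log2 fold change above 0 in input at 24 hours (median 2.59) and 19 at 2 weeks (median 1.29), beside medians of 0.27 and 0.01 over all 17644 genes tested. In the m6A libraries the medians were 2.61 at 24 hours, with 19 of 19 above 0, and 0.91 at 2 weeks, with 18 of 19 above 0. In these libraries 3 rose past the threshold at 24 hours: Emp1, a membrane protein, by 2.67 on the log2 scale (adjusted P = 0.0145), Cd44, the hyaluronan receptor, by 2.67 (adjusted P = 0.0335) and Osmr, the oncostatin M receptor, by 1.90 (adjusted P = 0.0360), all with edgeR. Gfap, the intermediate filament protein of astrocytes, had a median of 157 CPM in PBS and 745 CPM in IAKA input libraries at 2 weeks.

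The general astrocyte markers Aqp4, Aldh1l1, Slc1a3, Slc1a2, Gja1, Gjb6, Sox9 and Fgfr3 had a summed level of 1927 to 4102 CPM in PBS and 2693 to 5872 CPM in IAKA input libraries at 2 weeks. In the m6A libraries at 24 hours their sums were 2660 to 3323 CPM and 805 to 3393 CPM. The part of cell numbers in the Serpina3n levels was not tested. The genes whose log2 CPM followed Serpina3n most closely over the 13 input libraries were Stat3 (Pearson r = 0.965), Vim (0.963), Flnc (0.953), A2m (0.948) and Vgf (0.945). Over the 19 m6A libraries they were Hspb6 (r = 0.949), Slc14a1 (0.943), Flnc (0.939), S1pr3 (0.939) and Vim (0.922). Each r is a description over libraries that share treatment and depth.

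Serpina3n belongs to a cluster of near-identical genes on chromosome 12, between which the counting could have split reads. The other 10 members listed, from Serpina3a to Serpina3m, reached at most 2.92 CPM in any group in input and 2.89 CPM in the m6A libraries. None of these 10 passed the threshold in any comparison with edgeR, and 5 of them passed the filter in the input libraries.

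**Figure D2:**
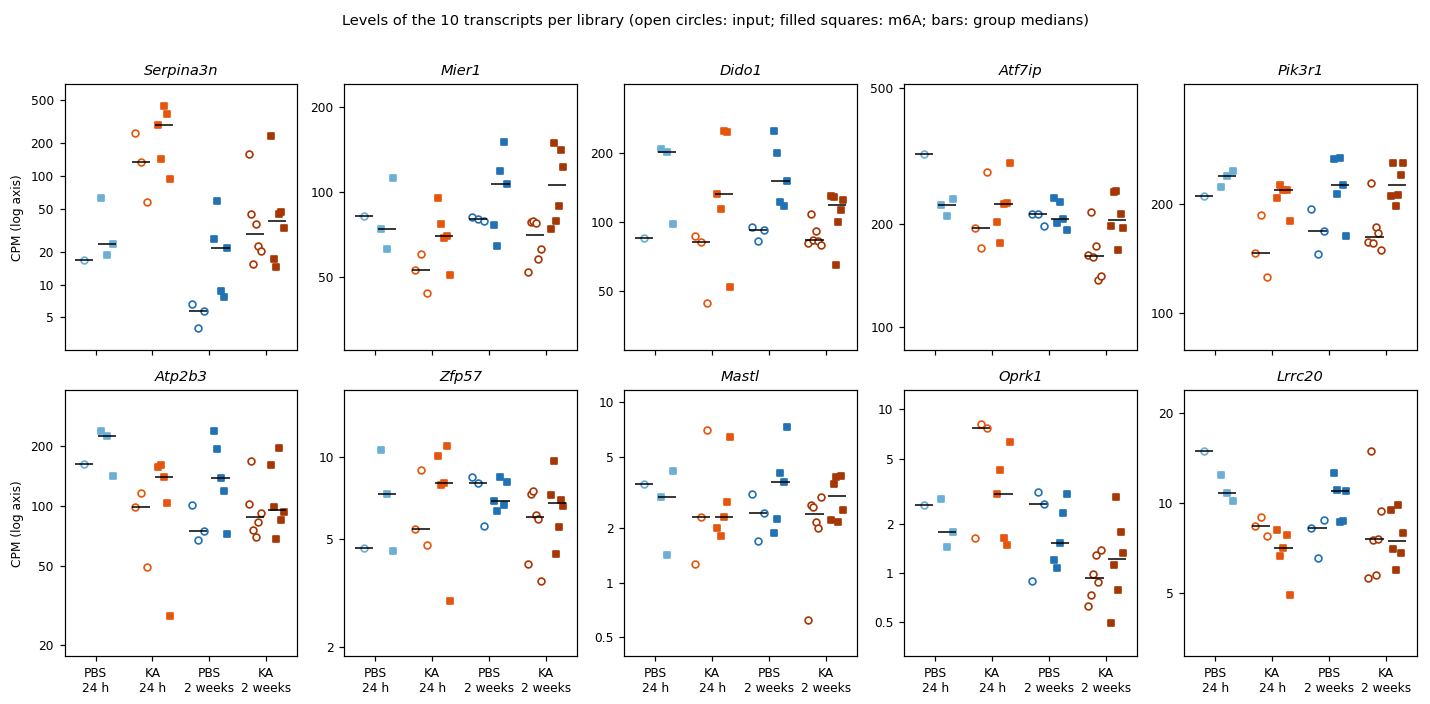
Levels of the 10 transcripts in CPM (log axis) in each deep library by group, with open circles for input, filled squares for m6A and bars at the group medians. Serpina3n reads 3.99 to 6.66 CPM in PBS input at 2 weeks and 58.0 to 247 CPM in IAKA input at 24 hours, and the groups of most other transcripts overlap.

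With edgeR on all groups, no transcript of the panel passed an adjusted P of 0.05 for IAKA against PBS in either assay at either time. Other tools, or fits within a library set chosen after seeing the data, called Serpina3n, Lrrc20 and Atp2b3 in the cases given for each. The share of all genes tested that passed was 0% in input at 24 hours, 0% in input at 2 weeks, 0.178% in m6A at 24 hours and 0.00573% in m6A at 2 weeks. With edgeR, 1628 and 1439 genes in input had an unadjusted P under 0.05 at 24 hours and 2 weeks, of which 1 at each time, Serpina3n, was in the panel. DESeq2 called 197 and 44 genes in these comparisons and voom 1076 and 112. The median log2 fold change of the 10 was -0.08 at 24 hours and -0.06 at 2 weeks in input, and -0.07 and -0.14 in m6A. For all genes it was 0.27 and 0.01 in input and 0.09 and 0.01 in m6A. The value of 0.27 was -0.04 when libraries were scaled by their totals alone. It was 0.03 without IAKA mouse 8, but 0.25 without mouse 67 and 0.28 without mouse 98. Log2 fold changes in input at 24 hours are thus best read against the value of 0.27.

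In input at 2 weeks every IAKA library lay above every PBS library for 1 of the 10, Serpina3n, and for 2.36% of all genes. Every IAKA library lay below every PBS library for 1 of the 10, Mier1, and for 3.26% of all genes. In m6A at 24 hours Serpina3n lay wholly above, as did 2.53% of all genes, and Lrrc20 wholly below, as did 1.07%. In m6A at 2 weeks none of the 10 was apart in either direction, beside 0.315% of all genes above and 0.321% below.

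**Figure D3:**
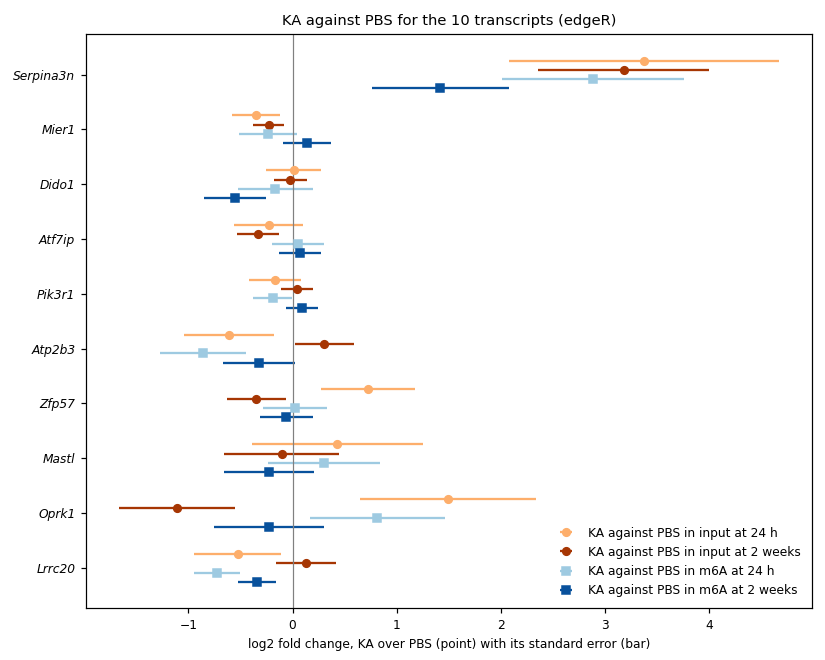
Log2 fold change of IAKA over PBS for the 10 transcripts (points) with the standard error of the edgeR fit (bars), for input (circles) and m6A (squares) at 24 hours and 2 weeks. Serpina3n lies at 3.37, 3.18, 2.88 and 1.42, and the other points lie between -1.11 and 1.49.

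Lrrc20 was lower in IAKA mice without overlap in the m6A libraries at 24 hours. The PBS mice had 10.1, 10.8 and 12.4 CPM, and the IAKA mice had 4.90, 6.65, 7.05, 7.81 and 8.08 CPM. No value was shared by the groups, and the lowest of the IAKA mice was mouse 8. The log2 fold change was -0.72 (SE 0.22), with an edgeR adjusted P of 0.295 over all genes, and between -0.80 and -0.67 under the alternatives. Within set 4 it was -0.76 (edgeR adjusted P = 0.0392), from 10.8 and 12.4 CPM in PBS mice to 7.05 and 7.81 CPM in IAKA mice. With voom on all groups the adjusted P was 0.00225. Of all genes, 1023 of 17110 passed in the fit within set 4 and 1369 of 17440 with voom. The fit within set 4 was chosen after seeing the data. The libraries of IAKA mice 67 and 98 held only 16 and 11 counts of Lrrc20.

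The input at 24 hours lay in the same direction, with 14.9 CPM of Lrrc20 in the PBS mouse and 7.77, 8.37 and 8.96 CPM in the IAKA mice (log2 fold change -0.53, SE 0.42). There was 1 PBS library there, and 33.1% of all genes lay wholly below it in the IAKA mice. In m6A over input at 24 hours the difference between IAKA and PBS mice was -0.10 on the log2 scale (SE 0.50, edgeR adjusted P = 1.00).

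At 2 weeks, the time of its meRIP-qPCR, Lrrc20 had 8.64 to 12.6 CPM in the m6A libraries of PBS mice and 5.96 to 9.80 CPM in those of IAKA mice (log2 fold change -0.34, SE 0.18, edgeR adjusted P = 0.949). In input at 2 weeks the PBS mice had 6.56, 8.22 and 8.74 CPM and the IAKA mice 5.62 to 14.9 CPM. The groups overlapped in both assays.

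Atp2b3 encodes a calcium pump of neurons that returns the cell to its resting calcium level. Its m6A levels at 24 hours were 141, 223 and 237 CPM in PBS mice and 28.0, 104, 140, 156 and 160 CPM in IAKA mice. Only the lowest PBS mouse fell within the IAKA range, and IAKA mouse 8 gave the lowest value. The log2 fold change was -0.86 (SE 0.41, edgeR adjusted P = 0.713) and -0.67 without mouse 8. Within set 4 the values were 223 and 237 CPM in PBS mice and 104 and 140 CPM in IAKA mice. The log2 fold change there was -1.04 (edgeR adjusted P = 0.0124). That fit was chosen after seeing the data, and 1023 of 17110 genes passed in it. Voom on all groups gave an adjusted P of 0.0154, and 1369 of 17440 genes passed with it. In input at 24 hours the PBS mouse had 162 CPM and the IAKA mice 49.5, 98.0 and 116 CPM (log2 fold change -0.61, SE 0.43, or -0.38 without mouse 8). As with Lrrc20, 33.1% of all genes lay wholly below that 1 PBS library.

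Of the 7 plasma membrane calcium pumps and sodium-calcium exchangers listed, 6 of 7 had a log2 fold change below 0 in the m6A libraries at 24 hours (median -0.23). None passed the threshold with edgeR on all groups. Of the 8 excitatory neuron markers, 6 were below 0 as well (median -0.17), and in set 4 their summed level was 4969 and 5199 CPM in PBS mice and 3694 and 3840 CPM in IAKA mice. In input at 24 hours 5 of the 8 markers lay above 0 (median 0.13, beside 0.27 over all genes). The part of these markers in the Atp2b3 difference was not tested.

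At 2 weeks 6 of the 7 pump and exchanger genes were again below 0 in m6A (median -0.32), none past the threshold with edgeR, as were 7 of the 8 excitatory neuron markers (median -0.30). The PBS mice of set 4, which held no IAKA mouse at this time, had the highest summed levels of the 7, with 2825 and 3155 CPM. The PBS mice of set 5 had 2042 to 2504 CPM and the IAKA mice 1895 to 2484 CPM, so that outside set 4 the groups overlapped. In input at 2 weeks 6 of the 8 excitatory neuron markers lay above 0 (median 0.40, beside 0.01 over all genes).

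Pik3r1 encodes the subunit that holds the catalytic subunits of PI3K in check until a receptor is active. In the m6A libraries at 24 hours it had 224, 240 and 247 CPM in PBS mice and 180, 209, 219, 219 and 226 CPM in IAKA mice. The ranges met between the highest IAKA and the lowest PBS mouse, and the log2 fold change was -0.19 (SE 0.19, edgeR adjusted P = 0.880). In input at 2 weeks the PBS mice had 145, 169 and 194 CPM and the IAKA mice 150 to 230 CPM.

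Oprk1 was low and uneven. In input at 24 hours it had 2.60 CPM in the PBS mouse and 1.64, 7.67 and 8.19 CPM in the IAKA mice. At 2 weeks it had 0.888, 2.62 and 3.14 CPM in PBS mice and 0.624 to 1.37 CPM in IAKA mice. The IAKA mice were thus on both sides of the PBS mouse at 24 hours and, apart from PBS mouse 2, below the PBS mice at 2 weeks. The libraries behind these values held between 2 and 76 counts.

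The log2 fold changes of Oprk1 in input were 1.49 (SE 0.84, edgeR adjusted P = 0.628) at 24 hours and -1.11 (SE 0.56, edgeR adjusted P = 0.637) at 2 weeks. The change between the times was -2.60 (SE 1.03, edgeR adjusted P = 1.00), the largest in size among the 10. With edgeR none of the 10 passed for this change, and the share of all genes that did was 0% in input and 0.00573% in m6A. In input 543 genes had an unadjusted P under 0.05 for it with edgeR, while DESeq2 called 9 and voom 0. In the m6A libraries Oprk1 ran from 1.43 to 2.83 CPM in PBS and from 1.47 to 6.31 CPM in IAKA mice at 24 hours, with mouse 8 the highest.

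Of 8 opioid receptors and peptide precursors, Pnoc, the precursor of nociceptin, rose past the threshold in the m6A libraries at 24 hours, by 2.08 on the log2 scale (SE 0.29, edgeR adjusted P = 0.00505). In these libraries 7 of 8 lay above 0 (median 0.58, beside 0.09 over all genes), and the 4 receptors and the other precursors did not pass. In input 7 of 8 lay above 0 at 24 hours (median 1.01) and 5 of 8 at 2 weeks (median 0.25), and none passed with edgeR.

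Among the genes of nuclear proteins, Mier1 was even across PBS input libraries. At 2 weeks PBS mice had 79.0, 80.4 and 81.3 CPM, and IAKA mice had 52.1, 57.9, 62.9, 77.7, 78.4 and 78.8 CPM. The groups did not overlap, but the highest IAKA and the lowest PBS mouse were close together. For this difference the log2 fold change was -0.23 (SE 0.14, edgeR adjusted P = 0.720), and within the libraries without the word Input it was -0.17. The median of Mier1 was 60.4 CPM in the input libraries with that word and 78.8 CPM in those without it. In m6A at 24 hours Mier1 had 62.8, 74.1 and 112 CPM in PBS mice and 50.9 to 95.0 CPM in IAKA mice, and these overlapped.

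Dido1 levels in the m6A libraries differed by library set. The 6 libraries of set 4 had 199 to 248 CPM, those of set 3 had 52.1 to 132 CPM and those of set 5 had 98.0 to 151 CPM, so set 4 did not overlap with the others. Set 4 held 2 mice each of PBS and IAKA at 24 hours and 2 PBS mice at 2 weeks, and no IAKA mouse at 2 weeks. At 2 weeks the log2 fold change was -0.55 (SE 0.30, edgeR adjusted P = 0.949), and with the set as a block it was -0.04. At 24 hours the PBS mice had 98.0, 201 and 207 CPM and the IAKA mice 52.1, 114, 132, 246 and 248 CPM. In input, Dido1 lay between 79.2 and 108 CPM in every library except that of IAKA mouse 8 at 24 hours, with 44.3 CPM.

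**Figure D4:**
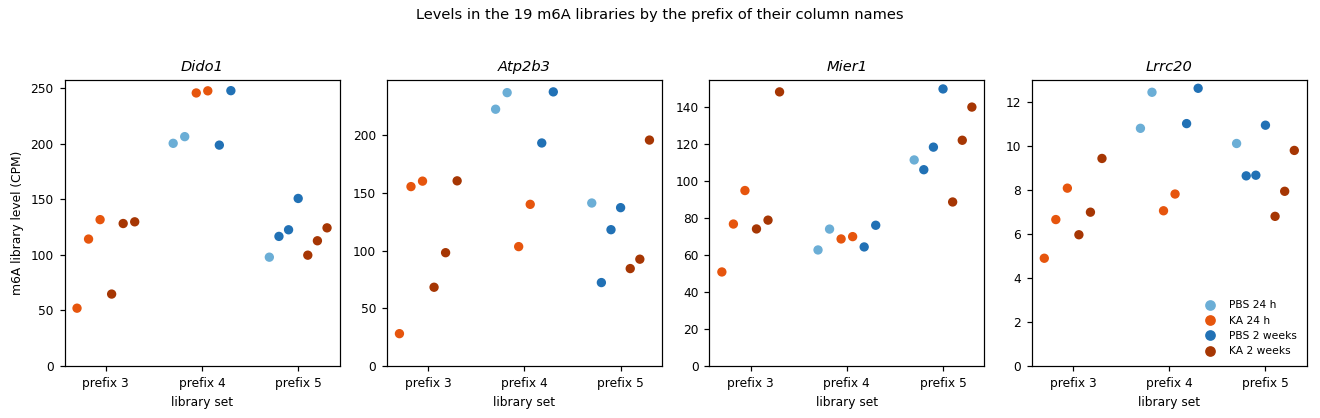
Levels of Dido1, Atp2b3, Mier1 and Lrrc20 (CPM, axes from 0) in the 19 m6A libraries by the prefix of their column names, coloured by group. The 6 Dido1 values of prefix 4 lie at 199 to 248 CPM, above all others, and the Mier1 values of prefix 4 lie within 62.8 to 76.2 CPM.

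Mier1 and Atp2b3 also varied with the set. Mier1 had 62.8 to 76.2 CPM in the m6A libraries of set 4 and 88.8 to 150 CPM in those of set 5, while Atp2b3 had a median of 208 CPM in set 4 and 118 CPM in set 5. What the prefix stands for is not given in the sources used here, and its part in these levels was not tested beyond the fits within a set and with the set as a block. The summed level of Dido1 and the 5 other SPOC domain genes listed, which include the writer complex members Rbm15 and Rbm15b, ran from 555 to 1115 CPM in the m6A libraries of PBS mice and from 357 to 1340 CPM in those of IAKA mice at 24 hours. Of the 5 that passed the filter, none passed the threshold for IAKA against PBS with edgeR.

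Atf7ip had 198, 214 and 214 CPM in PBS input libraries at 2 weeks and 137 to 217 CPM in those of IAKA mice. Of the IAKA mice 5 lay below all PBS mice, and mouse 21 lay above them. As a log2 fold change this was -0.33 (SE 0.20, edgeR adjusted P = 0.715), and within the input libraries without the word Input it was -0.18. In the m6A libraries at 24 hours, the time of its meRIP-qPCR, the PBS mice had 211, 227 and 236 CPM and the IAKA mice 177, 203, 230, 231 and 302 CPM, on both sides of the PBS mice. Of 12 genes tested of the ATF7IP, SETDB1 and HUSH silencing list in input, and 11 in m6A, none passed for IAKA against PBS with edgeR.

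Zfp57 was low, with 2.97 to 10.97 CPM over all m6A libraries. At 2 weeks, the time of its meRIP-qPCR, the m6A libraries of PBS mice had 6.34 to 8.43 CPM and those of IAKA mice 4.42 to 9.62 CPM. In input the log2 fold change was 0.72 (SE 0.45, edgeR adjusted P = 0.670) at 24 hours and -0.35 (SE 0.28, edgeR adjusted P = 0.796) at 2 weeks. Of the imprint maintenance list, which has Trim28, Dnmt1 and Uhrf1 beside it, none passed for IAKA against PBS with edgeR.

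Mastl, whose product drives entry into mitosis, had between 2 and 70 counts in the input libraries. The m6A libraries at 2 weeks had 1.88, 2.24, 3.60, 4.03 and 7.30 CPM in PBS mice and 2.16 to 3.92 CPM in IAKA mice, which lay within the PBS range. At 24 hours mouse 8 had 7.06 CPM in input and 6.45 CPM in m6A, above the other IAKA mice at 1.27 and 2.30 CPM in input and 1.81 to 2.78 CPM in m6A. Of 13 Greatwall pathway genes, which include Ensa, Arpp19 and subunits of PP2A, none passed for IAKA against PBS at either time with edgeR. Of 9 genes of the MIER and histone deacetylase list, none passed either.

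The m6A over input ratio, taken within a mouse, asks whether a transcript was over-represented in the pulled-down RNA. The ratios per mouse are of plain CPM, for which 1 is not the middle of all genes. With libraries scaled by their totals alone, the median log2 ratio over all genes was 0.15, against -0.02 in the main fit. How many of all genes lay above 1 in as many mice was not counted. In the 13 mice with both libraries, Mier1 had a ratio above 1 in 13 of 13, from 1.13 to 2.11 with a median of 1.42. Its mean log2 ratio over the 4 groups was 0.36 (SE 0.10, edgeR adjusted P = 0.0423). Mier1 was the 1 transcript of the 10 past the threshold, beside 8.42% of the 20567 genes tested. Mier1 is also 1 of the 3 transcripts without GGACT in the coding sequence, which makes up 1533 of the 4754 bases of its transcript. The rest of the transcript was not searched.

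The Mier1 call was close to the threshold. With a mouse left out, it was lost in 8 of 12 cases (adjusted P up to 0.0926), those of IAKA mice 67, 98 and 8 at 24 hours, PBS mice 2 and 3 at 2 weeks and IAKA mice 5, 7 and 9 at 2 weeks. Each group has the same weight in the mean, and the single PBS mouse at 24 hours, which makes up a whole group, could not be left out. Without the mouse as a block, that is, with the pairing of the libraries ignored, its log2 ratio was 0.37 (adjusted P = 0.176). The log2 ratio itself stayed between 0.33 and 0.54.

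For the other nine, the ratio was on both sides of 1. Serpina3n was above 1 in 12 of 13 mice, Dido1 and Pik3r1 in 11, Mastl in 10, Atf7ip and Atp2b3 in 9, Oprk1 in 8, Zfp57 in 7 and Lrrc20 in 6. The mean log2 ratio was 0.35 (SE 0.14, edgeR adjusted P = 0.147) for Serpina3n, 0.18 (SE 0.10, edgeR adjusted P = 0.335) for Dido1, 0.17 (SE 0.10, edgeR adjusted P = 0.352) for Pik3r1 and -0.38 (SE 0.15, edgeR adjusted P = 0.127) for Lrrc20. When libraries were scaled by their totals alone, the median over all genes moved from -0.02 to 0.15. Serpina3n, Mier1, Dido1 and Pik3r1 then passed, among 3198 of 20567 genes that did. With voom, Lrrc20 passed below 0 (log2 ratio -0.36, adjusted P = 0.0462), where 4899 of 20567 genes passed, 2635 of them below 0.

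**Figure D5:**
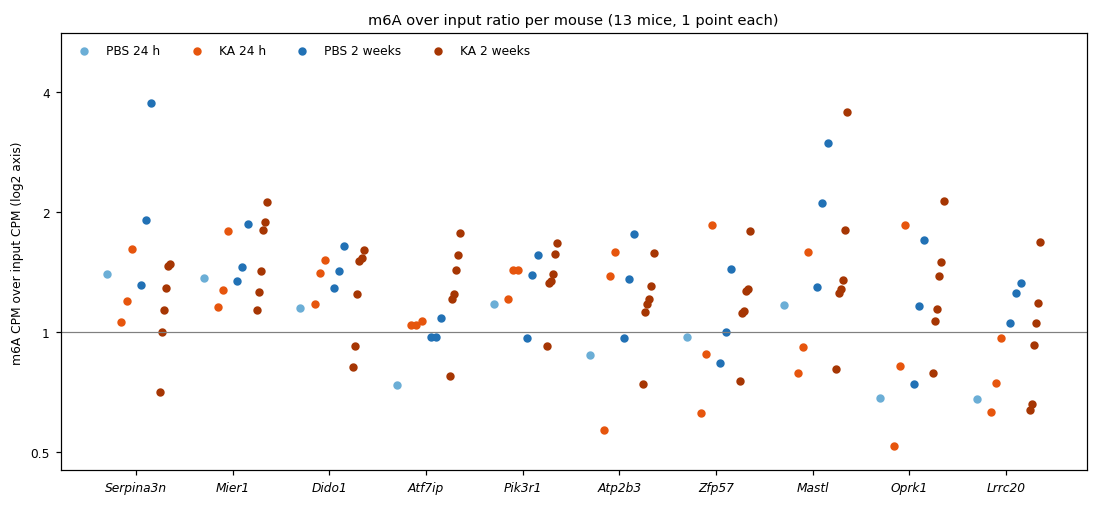
Ratio of m6A CPM to input CPM (log2 axis) for the 10 transcripts in each of 13 mice, coloured by group, with a line at 1. All 13 Mier1 points lie above the line, from 1.13 to 2.11, and the widest spreads are those of Serpina3n (0.706 to 3.74) and Mastl (0.788 to 3.57). The line is not the middle of all genes, whose median log2 ratio was 0.15 with libraries scaled by their totals alone.

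Related genes past the threshold in this comparison, all with edgeR, were Mphosph8 of the HUSH complex (log2 ratio 0.49, adjusted P = 0.0192), Phf3, a SPOC domain protein (0.46, adjusted P = 0.0194), Slc8a3, a sodium-calcium exchanger (0.46, adjusted P = 0.0221), and Penk, the enkephalin precursor (0.37, adjusted P = 0.0384). Lower in m6A than in input were Ppp2r1a, a scaffold subunit of PP2A (-0.49, adjusted P = 0.0264), Pik3cb, a catalytic PI3K subunit (-0.36, adjusted P = 0.0449), and Cd44 (-0.40, adjusted P = 0.0377). Among cell type markers Neurod6 (0.75), C1qb (0.81), Aif1 (0.70), Dlx1 (0.38) and Ttr (0.61) were past the threshold above 0, and Gad1 (-0.56), Cldn11 (-0.40) and Pecam1 (-1.90) below it. A gene past the threshold does not stand for its list. Of the 8 excitatory neuron markers, 3 lay above 0 and 5 below (median -0.12). Of the 12 genes tested of the ATF7IP, SETDB1 and HUSH silencing list, 4 lay above and 8 below (median -0.07).

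Whether the ratio differed between IAKA and PBS mice is the question closest to that of the meRIP-qPCR. With edgeR none of the 10 passed the threshold at 24 hours, where 0.00486% of all genes did, or at 2 weeks, where again 0.00486% did. At 24 hours the comparison rests on 1 PBS mouse. At 2 weeks the largest differences after Serpina3n were those of Oprk1 (log2 difference 0.47, SE 0.54, edgeR adjusted P = 0.963), Mastl (-0.46, SE 0.46, edgeR adjusted P = 0.959) and Atf7ip (0.41, SE 0.24, edgeR adjusted P = 0.952).

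The Atf7ip ratios at 2 weeks were 0.969, 0.9702 and 1.08 in PBS mice and 0.775, 1.21, 1.24, 1.43, 1.56 and 1.77 in IAKA mice. Thus 5 of 6 IAKA mice lay above all PBS mice, and mouse 21 below them. The Mastl ratios were 1.297, 2.11 and 2.98 in PBS mice and 0.805 to 3.57 in IAKA mice, where the highest, in mouse 42, rests on 2 counts in input. Without PBS mouse 4 the Mastl difference was -0.14, and without PBS mouse 2 it was -0.77. Without PBS mouse 3 the Oprk1 difference was 0.10. Standard errors of 0.22 to 0.54 on the log2 scale at 2 weeks set what this comparison could show for the 10.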

How the data were processed

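The authors deposited raw counts, not normalized, in 15 tables of 32544 gene symbols with a column for each of 4 lanes. Libraries were made with a stranded total RNA kit. The submitters' processing notes name the mm10 build, while the sources used here give neither the aligner nor the counting program. Adding up the lanes gave 35 libraries. Left out were 8 columns of 2 mice that have no input library in the labels. For 27 libraries the assay was taken from the numeric prefix (3, 4 or 5 as m6A, none as input), and for 8 the column states it. Levels are CPM, that is, counts over the library total on a common scale.

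Tests were run with edgeR 4.0.16 (R 4.3.3; filterByExpr, TMM scaling, robust quasi-likelihood fit, Benjamini-Hochberg adjustment over all genes tested, threshold 0.05) on libraries with at least 100000 counts, all 4 groups of an assay in 1 fit. The m6A over input comparisons had the mouse as a block, since by the labels both libraries come from the same animal. In 12 mice, deviations of input and m6A from their group means correlated with r from -0.02 to 0.85, above 0.1 in 10. The lowest were those of PBS mice 2, 3 and 4 at 2 weeks (0.071, 0.107 and -0.023). The pairing was thus hardly seen in the controls of the comparison at 2 weeks. The SE is the absolute log2 fold change over the square root of the F statistic. Alternatives were DESeq2 1.42.0, limma 3.58.1 (voom with sample quality weights), library size scaling, no filter, a mean of at least 10 counts, all labelled libraries, only the groups compared, the library set as a block, no block, and each library or mouse left out. Fits within a library set, and without libraries above 15% mitochondrial counts, were chosen after seeing the data. Scripts were tested on simulated data.

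The transcripts and gene lists were chosen with earlier results of these data known. Genes named are the 10, up to 3 further genes per list and comparison past the threshold with the smallest P, and the 5 nearest Serpina3n by Pearson r of log2 CPM (prior count 2, mean of at least 5 CPM) in each assay. Coding sequences are those of GENCODE M39 (GRCm39). P values set a difference against the spread between mice, shared over the groups of a fit. At 24 hours only 1 PBS mouse had a deep input library, so its spread was taken from the other groups, which is an assumption. In m6A over input the spread is that of the differences within mice. The counts for the list of PI3K genes are not reported here.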

Additional observations from a re-analysis of the deposited data

Results flagged for a closer look

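Within groups of 5 or 6 libraries or mice, 6 of 50 sets of values held a sample set apart from the rest by more than Dixon's 95% limit, which chance reaches in about 1 in 20. Serpina3n stood at 159 CPM in the input of IAKA mouse 42 at 2 weeks, with the other 5 mice between 15.4 and 44.2 CPM. In the m6A library of the same mouse it stood at 232 CPM, with the others between 14.4 and 46.8 CPM. Mastl had an m6A over input ratio of 3.57 in mouse 42, with the others between 0.805 and 1.81. In the input of IAKA mouse 21 at 2 weeks, Atp2b3 stood at 167 CPM, with the others between 69.8 and 102 CPM. Pik3r1 stood at 230 CPM in the same library, with the others between 150 and 173 CPM. Mastl stood at 6.45 CPM in the m6A library of IAKA mouse 8 at 24 hours, with the others between 1.81 and 2.78 CPM.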

How the results depend on the processing

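Over all 90 pairs of transcript and comparison, direction changed in 137 of 1638 refits, and in 45 pairs it never did. These 45 include 28 pairs followed one by one over 491 refits, but not every pair printed (the change of Serpina3n between times in input is 1 that turned). Counts of genes past the threshold moved more. In input at 24 hours (0) they were 197 with DESeq2, 1076 with voom, 1 with library size scaling, 3 without a filter, 8 with all labelled libraries, 2 with the library set as a block, 75 with the 2 groups and all labelled libraries alone, 342 within the library set and 180 without libraries above 15% mitochondrial counts. In input at 2 weeks (0) they were 44 with DESeq2, 112 with voom and 2 without a filter, and for the change between times in input (0) 9 with DESeq2 and 1 with all labelled libraries. In m6A at 24 hours (31) they were 202 with DESeq2, 1369 with voom, 65 with the set as a block, 1 with the 2 groups alone and 1023 within set 4. In m6A at 2 weeks (1) they were 13 with DESeq2, 2 without a filter or with the set as a block, and 0 with library size scaling, with the 2 groups alone and within set 5. For the change between times in m6A (1) they were 5 with DESeq2, 62 with voom and 2 with the set as a block. For m6A over input (1732) they were 4899 with voom, 3198 with library size scaling and 477 with no replicate block. For its difference between IAKA and PBS at 24 hours (1) they were 2 without a filter and 0 with voom, library size scaling, a mean of at least 10 counts, no replicate block and without the mitochondria-rich libraries, and at 2 weeks (1) 0 with voom and with no replicate block. The causes were not tested. With 1 library or mouse left out, counts ran from 1 to 180 in input at 24 hours (180 without mouse 8), 0 to 1 at 2 weeks, 1 to 34 in m6A at 24 hours, 0 to 2 at 2 weeks, 1160 to 2512 for m6A over input and 0 to 2 for its difference at either time, and stayed at 0 and 1 for the changes between times in input and m6A. All m6A libraries were deep, so all labelled libraries gave no other value there. Few counts limit Mastl and Oprk1.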
